A study of Spodoptera frugiperda with 15 samples.

Results

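HR3, hormone receptor 4 and CYP306A1 are 3 genes of the insect moulting hormone pathway, followed here across 15 RNA-seq libraries of the fall armyworm *Spodoptera frugiperda*, a noctuid moth whose caterpillars feed on maize and many other crops. They were picked by their identifiers in the gene table, LOC118279845 for HR3, LOC118262489 for hormone receptor 4 and LOC118266714 for CYP306A1, out of 20784 genes in all. They were picked because their levels in insecticide-treated animals stood apart from control, so their levels against control are given below as a description, with no test. Each library was made from poly(A) RNA of whole bodies of wild-type animals. There were 5 groups of 3 libraries, labelled emamectin benzoate, tetrazolidamide, cyantraniliprole, spinetoram and control; the 4 treated groups are named after insecticides, and all 5 share the wild-type genotype. The labels used here give no dose, exposure time, larval stage or age, and nothing in them ties each library to its own animals, so a p-value here covers the spread between these libraries alone. In whole bodies, fewer cells of a type and less RNA per cell cannot be told apart.

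Moulting is driven by pulses of ecdysteroids. Cytochrome P450 enzymes encoded by the Halloween genes make ecdysone in the prothoracic gland from dietary sterol; CYP306A1, called Phantom in *Drosophila*, is the hydroxylase that acts at carbon 25 of the side chain. Ecdysone is converted to the active hormone in other tissues, which binds the ecdysone receptor EcR with its partner ultraspiracle (USP). This receptor turns on early genes such as E74, E75 and broad, and then a tier of delayed nuclear receptors that includes HR3 and hormone receptor 4. In *Drosophila*, HR3 and hormone receptor 4 repress early genes, HR3 also turns on FTZ-F1 as the hormone declines, and E75 binds and inhibits HR3. FTZ-F1 in turn prepares tissues for the shedding of the old cuticle, and waves of cuticle protein genes accompany these steps.

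The files placed HR3 on the plus strand at NC_049737.1:6114703-6174084, hormone receptor 4 on the plus strand at NC_049713.1:2114006-2213728, and CYP306A1 on the minus strand at NC_049718.1:7471569-7479877; the genome build is not given in the sources used here. These spans hold the exons and introns of each gene, and each value merges all transcript models of the gene, of which HR3 had 7, hormone receptor 4 had 7 and CYP306A1 had 5. Both receptors also had a second entry with the same description on the same chromosome. The second HR3 entry, LOC118279815, started at 5329611, ended at 5462810 and lay 652 kb from the first. The second hormone receptor 4 entry, LOC118262341, started at 2400790, ended at 2406387, lay 187 kb from the first and held only 2 noncoding models. Each hormone receptor 4 entry was followed by its own entry for subunit I of a translation initiation factor, LOC118262788 next to the first and LOC118262336 next to the second. Reads of near-identical copies can be divided between entries by the authors' counting, so the levels of both receptors are uncertain to that extent. An opposite-strand gene overlapped each of the 3 genes, and strand handling in the counting is not given in the sources used here. These overlapping genes were low, with at most 0.612 CPM (counts scaled to the library total) in any library for LOC118279847 inside HR3, 0 in all 15 libraries for LOC118262490 inside hormone receptor 4, and at most 0.0692 CPM for LOC118266718 at the end of CYP306A1.

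Library totals ran from 50600821 to 77183281 deposited units of estimated counts, in which 1 read pair was worth about 3.8 units, and all 3 genes were among the 15505 genes that passed the filter on low counts. The libraries of a group could differ widely, with a biological coefficient of variation of 54.8% over all genes. The control group was not uniform in its cuticle genes. A cuticle score, the mean over 155 cuticle protein genes of each gene's log2 CPM minus its mean over the 15 libraries, was 0.74 in control library 1 but -1.44 in control library 2 and -1.70 in control library 3. The summed marker genes of fat body, muscle and midgut were present in every group. At the level of whole bodies these 3 tissues took 0.107 to 0.795%, 10.9 to 19.98% and 0.520 to 2.38% of the counted units of a library. In each group 1 or 2 of 13 fat body markers, 1 or 2 of 15 muscle markers and 12 to 16 of 86 midgut markers were at 0 in all its libraries.

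HR3, the delayed receptor that bridges the hormone's rise and FTZ-F1, was nearly absent in the emamectin benzoate and tetrazolidamide libraries and present in the others. It stood at 1.67, 4.84 and 1.35 CPM in the emamectin benzoate libraries, against 56.1, 24.1 and 163 CPM in the control libraries. It stood at 1.59, 2.19 and 2.24 CPM in the tetrazolidamide libraries. Every library of these 2 treated groups was below every control library, and the highest of the 6, emamectin benzoate library 2, was still well under the lowest control library. HR3 had 31.3, 79.6 and 39.4 CPM in the cyantraniliprole libraries and 23.0, 18.5 and 37.4 CPM in the spinetoram libraries; both groups overlapped control. The group means were 2.62 ± 1.93, 2.01 ± 0.363, 50.1 ± 25.9 and 26.3 ± 9.88 CPM for emamectin benzoate, tetrazolidamide, cyantraniliprole and spinetoram, and 81.0 ± 72.6 CPM for control (SD, n = 3 each). In this order of levels, from tetrazolidamide at the bottom through emamectin benzoate, spinetoram and cyantraniliprole to control at the top, each neighbouring pair overlapped except emamectin benzoate and spinetoram. The counts behind the low values were small, from 24 to 95 read pairs in the emamectin benzoate libraries and 24 to 36 in the tetrazolidamide libraries, against 350 to 3012 in the control libraries. On the log2 scale, HR3 was -4.95 (SE 0.76) with emamectin benzoate and -5.33 (SE 0.78) with tetrazolidamide relative to control. Without control library 3, the highest, these values were -3.97 and -4.37, and without emamectin benzoate library 2 the first of them was -5.77. The cyantraniliprole value was -0.69 (SE 0.64), and 0.27 without control library 3. The spinetoram value was -1.62 (SE 0.66), or -0.65 without control library 3.

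**Figure D1:**
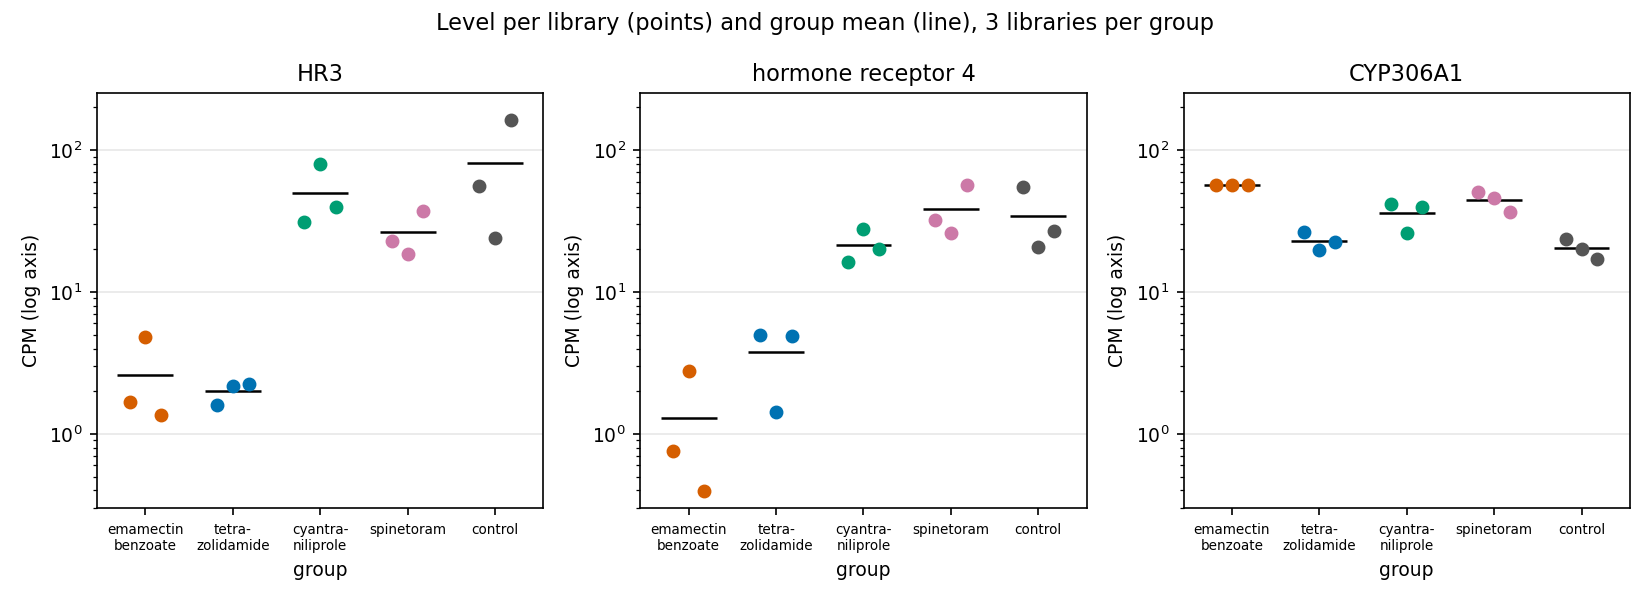
HR3, hormone receptor 4 and CYP306A1 in each of the 15 libraries, in CPM on a log axis; points are libraries 1 to 3 of each group from left to right and the line is the group mean. The emamectin benzoate and tetrazolidamide libraries lie at 1.35 to 4.84 CPM for HR3, below all others, while for CYP306A1 the emamectin benzoate libraries lie together at 56.5 to 56.8 CPM.

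Hormone receptor 4, which in *Drosophila* is needed for the timing of metamorphosis, was low in the same 2 groups. It had 0.761, 2.76 and 0.397 CPM in the emamectin benzoate libraries, against 54.6, 20.7 and 27.0 CPM in the control libraries. It had 5.00, 1.42 and 4.88 CPM in the tetrazolidamide libraries, again with every library below every control library. It had 16.3, 27.9 and 19.9 CPM in the cyantraniliprole libraries and 32.3, 26.0 and 56.6 CPM in the spinetoram libraries, and both groups overlapped control. Spinetoram library 3 and control library 1 were the highest of all 15 libraries. The group means were 1.31 ± 1.27, 3.77 ± 2.03, 21.4 ± 5.94 and 38.3 ± 16.2 CPM for emamectin benzoate, tetrazolidamide, cyantraniliprole and spinetoram, and 34.1 ± 18.02 CPM for control (SD, n = 3 each). Emamectin benzoate and tetrazolidamide overlapped, as did cyantraniliprole with spinetoram and with control, while tetrazolidamide and cyantraniliprole did not. The log2 difference from control was -4.70 (SE 0.76) with emamectin benzoate, -3.18 (SE 0.71) with tetrazolidamide, -0.67 (SE 0.65) with cyantraniliprole and 0.17 (SE 0.65) with spinetoram. Without emamectin benzoate library 2 the first of these was -5.88, and without spinetoram library 3 the last was -0.21. Emamectin benzoate library 3 held only 7 read pairs of this gene, so counting error adds to the spread there.

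CYP306A1 followed another order and a far narrower range, 17.1 to 56.8 CPM over the 15 libraries. It had 56.8, 56.5 and 56.6 CPM in the emamectin benzoate libraries, against 23.8, 20.003 and 17.1 CPM in the control libraries. It had 41.8, 26.2 and 39.8 CPM in the cyantraniliprole libraries and 50.8, 45.6 and 36.7 CPM in the spinetoram libraries. All libraries of these 3 treated groups were above all control libraries. The tetrazolidamide libraries, with 26.6, 19.8 and 22.6 CPM, overlapped control. The group means were 56.7 ± 0.116, 23.0 ± 3.42, 35.9 ± 8.49 and 44.4 ± 7.13 CPM for emamectin benzoate, tetrazolidamide, cyantraniliprole and spinetoram, and 20.3 ± 3.34 CPM for control (SD, n = 3 each). Relative to control the log2 difference was 1.48 (SE 0.20) with emamectin benzoate, 0.18 (SE 0.20) with tetrazolidamide, 0.82 (SE 0.20) with cyantraniliprole and 1.13 (SE 0.20) with spinetoram.

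With emamectin benzoate, all 3 genes were separated from control, the receptors downward and CYP306A1 upward; 11.7% of tested genes were lower without overlap and 13.6% were higher. With tetrazolidamide, the 2 receptors were lower without overlap, as were 18.4% of tested genes. With cyantraniliprole and with spinetoram only CYP306A1 was separated, upward, as were 13.3% and 11.6% of tested genes. Since the genes were picked on these contrasts, nothing is read from the counts. The 4 comparisons share the control libraries.

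The treated groups were also set against one another. The tetrazolidamide, cyantraniliprole and spinetoram libraries had all served in picking the genes, so these differences are a description too and no p-value is given beside them; all 5 groups entered the 1 edgeR fit behind the standard errors. In tetrazolidamide relative to cyantraniliprole the log2 difference was -4.64 (SE 0.75) for HR3 and -2.50 (SE 0.69) for hormone receptor 4, each with every tetrazolidamide library below every cyantraniliprole library, as for 18.3% of all tested genes. It was -0.64 (SE 0.20) for CYP306A1, whose libraries overlapped, since cyantraniliprole library 2 lay with the tetrazolidamide libraries; without that library it was -0.83.

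In tetrazolidamide relative to spinetoram the log2 difference was -3.71 (SE 0.72) for HR3, -3.35 (SE 0.71) for hormone receptor 4 and -0.95 (SE 0.20) for CYP306A1. For each of the 3 genes every tetrazolidamide library was below every spinetoram library, as for 16.3% of all tested genes. Spinetoram and cyantraniliprole overlapped for all 3 genes, with log2 differences of -0.93 (SE 0.65) for HR3, 0.84 (SE 0.65) for hormone receptor 4 and 0.31 (SE 0.20) for CYP306A1. The tetrazolidamide comparisons share their libraries.

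The second entries of the receptors may hold reads of the same genes, so their levels are given here in the same way, with no test. The second HR3 entry had 0.0800, 0.508 and 0 CPM in the emamectin benzoate libraries, 1.902, 1.36 and 1.94 CPM in the tetrazolidamide libraries, 3.10, 27.9 and 45.6 CPM in the cyantraniliprole libraries and 6.66, 19.5 and 27.5 CPM in the spinetoram libraries, against 20.5, 9.67 and 24.3 CPM in the control libraries. It was lowest in the same 2 groups as the first entry. The first entry held 45.5 to 100% of the summed HR3 level of a library. The second hormone receptor 4 entry had 0.880, 2.23 and 0.588 CPM in the emamectin benzoate libraries, 5.86, 3.63 and 8.23 CPM in the tetrazolidamide libraries, 23.1, 27.4 and 1.67 CPM in the cyantraniliprole libraries and 28.3, 30.7 and 1.69 CPM in the spinetoram libraries, against 56.2, 7.03 and 15.3 CPM in the control libraries. Cyantraniliprole library 3 and spinetoram library 3 stood apart, with 92.3% and 97.1% of the sum in the first entry, while over all libraries its share was 28.2 to 97.1%. Summing the entries brought the spinetoram libraries close together, at 58.6 ± 1.93 CPM, against 60.3 ± 44.3 CPM in control (SD, n = 3 each). The summed means of the other groups were 2.54 ± 2.15, 9.67 ± 4.16 and 38.7 ± 16.9 CPM for emamectin benzoate, tetrazolidamide and cyantraniliprole. For HR3 the summed means were 2.82 ± 2.20, 3.74 ± 0.382, 75.6 ± 37.5 and 44.2 ± 18.4 CPM for emamectin benzoate, tetrazolidamide, cyantraniliprole and spinetoram, and 99.2 ± 79.1 CPM for control. The same 2 groups were lowest for both receptors whether or not the entries were summed.

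**Figure D2:**
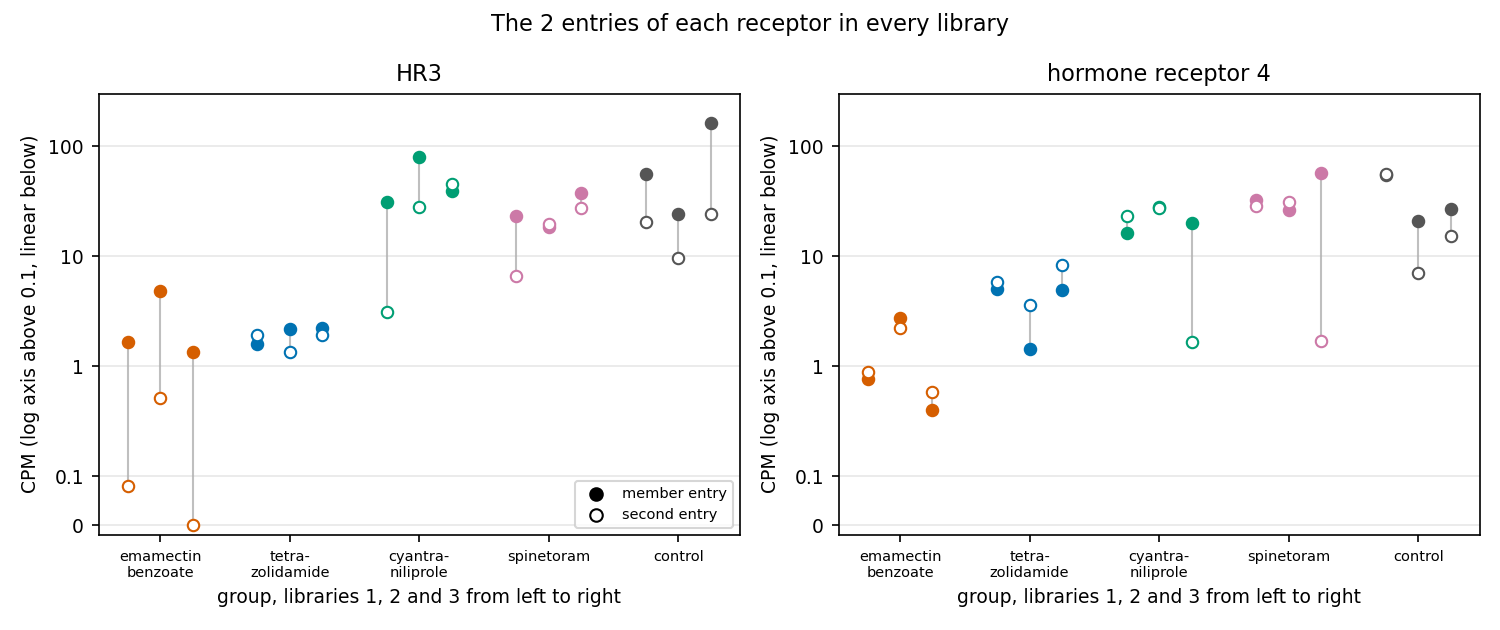
Both entries of HR3 and of hormone receptor 4 in each library, in CPM on an axis that is logarithmic above 0.1; filled points are the first entry, open points the second, and a grey line joins the entries of a library. Both entries are low in the emamectin benzoate and tetrazolidamide libraries, and the second hormone receptor 4 entry is at 1.67 CPM in cyantraniliprole library 3 and 1.69 CPM in spinetoram library 3.

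The cuticle score was used to ask whether the levels moved with moult timing. It was -1.21, -1.11 and -1.78 in the emamectin benzoate libraries, 2.03, 1.71 and 2.29 in the tetrazolidamide libraries, -0.36, -0.93 and -0.83 in the cyantraniliprole libraries and 1.44, -0.02 and 1.18 in the spinetoram libraries, against 0.74, -1.44 and -1.70 in the control libraries. The 2 groups in which HR3 and hormone receptor 4 were lowest thus had cuticle scores of opposite sign. Control libraries 2 and 3, where both receptors were present, scored below emamectin benzoate libraries 1 and 2, however. By the cuticle share of counted units, given below, the emamectin benzoate and tetrazolidamide libraries both lay above control. Control library 3, with the highest HR3 level of all, had one of the lowest scores. Of the 155 cuticle genes tested, 8 were higher and 0 lower with emamectin benzoate relative to control, where 4.09% of all genes passed in either direction. With tetrazolidamide 73 were higher and 5 lower, where 22.3% of all genes passed; with cyantraniliprole 8 were higher and 0 lower, where 2.62% passed; and with spinetoram 17 were higher and 0 lower, where 4.01% passed (edgeR, adjusted p under 0.05). Cuticle genes took 4.17 to 4.43% of counted units in the emamectin benzoate libraries and 5.03 to 6.04% in the tetrazolidamide libraries, 2.97 to 3.43% in cyantraniliprole and 2.73 to 4.76% in spinetoram, against 2.53 to 3.42% in control. The emamectin benzoate libraries thus lay above control by this share and within its range, or just below it, by the score, which weighs every gene alike; the median log2 difference of the 155 genes was -0.56 with emamectin benzoate, against 0.02 for all tested genes.

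**Figure D3:**
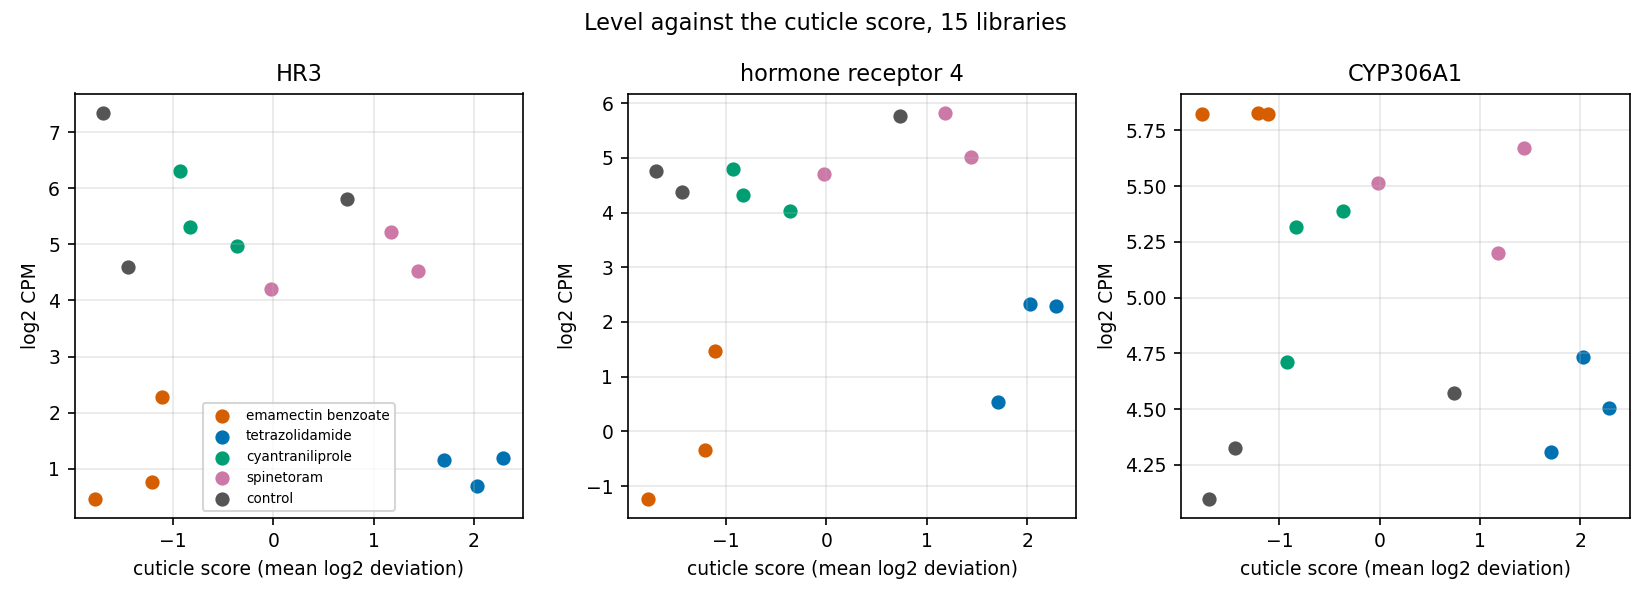
Level of each gene (log2 CPM, vertical axis) against the cuticle score (mean log2 deviation over 155 cuticle genes, horizontal axis) in the 15 libraries, coloured by group. For both receptors the emamectin benzoate libraries sit at low score and the tetrazolidamide libraries at high score, with both groups low on the vertical axis.

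Because group differences had served in picking the genes, the relation was computed within groups, on deviations from the group means of log2 CPM. It was tested with an exact permutation test over the 7776 orders of libraries within groups (two-sided, 15 libraries). For 6 relations in the family none passed after Benjamini-Hochberg adjustment. For HR3 and the score, Pearson's r was 0.01 (exact permutation p = 0.980, adjusted 0.980) and Spearman's rho 0.12 (exact p = 0.752), and the deviations had the same sign in 7 of 15 libraries. Hormone receptor 4 had r = 0.53 (exact permutation p = 0.0282, adjusted 0.138) and rho = 0.59 (exact p = 0.0444), with the same sign in 11 of 15 libraries. CYP306A1 had r = 0.45 (exact permutation p = 0.158, adjusted 0.237) and rho = 0.44 (exact p = 0.175), with the same sign in 10 of 15 libraries. In the emamectin benzoate libraries CYP306A1 deviated by only 0.0034, -0.0027 and -0.0007, so its sign there carries little. The libraries farthest from the middle of the score were control libraries 1 and 3; without them, which leaves the control group with 1 library and so 12 libraries in the test, r was 0.26, 0.47 and 0.23 for HR3, hormone receptor 4 and CYP306A1.

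Among the 3 genes themselves, HR3 and hormone receptor 4 had r = 0.51 within groups (exact permutation p = 0.116, adjusted 0.232) and rho = 0.62 (exact p = 0.0540). HR3 and CYP306A1 had r = -0.56 (exact permutation p = 0.0460, adjusted 0.138) and rho = -0.56 (exact p = 0.0622), with the same sign in 2 of 15 libraries. Here too the signs in the emamectin benzoate libraries carry little, as CYP306A1 hardly deviated there. Hormone receptor 4 and CYP306A1 had r = 0.05 (exact permutation p = 0.835, adjusted 0.980) and rho = 0.03 (exact p = 0.929). The 2 farthest libraries were emamectin benzoate 2 and 3 for the receptors, with 54 and 7 read pairs of hormone receptor 4. For both pairs with CYP306A1 they were cyantraniliprole 2 and spinetoram 3. Without them these r were 0.27, -0.39 and 0.51, from 12, 13 and 13 libraries. The signs held here, but hormone receptor 4 with CYP306A1 moved far from 0.05 and turned negative under some other settings. None of the 3 relations passed a test.

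Around the receptors, the hormone's own receptor and its partner did not pass the test in any comparison. EcR had 120 ± 5.11, 125 ± 25.6, 129 ± 11.7 and 116 ± 22.3 CPM in emamectin benzoate, tetrazolidamide, cyantraniliprole and spinetoram, and 152 ± 22.2 CPM in control (SD, n = 3 each). USP had 87.9 ± 7.99, 85.8 ± 10.2, 77.0 ± 4.28 and 72.4 ± 14.9 CPM in the same treated groups, and 60.4 ± 11.7 CPM in control. E75, the early gene whose product inhibits HR3 in *Drosophila*, averaged 126, 151, 130 and 175 CPM in the 4 treated groups in the same order, and 244 CPM in control, and did not pass either. The 3 entries for broad, another early gene, did not pass in any comparison. E74 and HR96 were highest in tetrazolidamide, where HR3 was low, but HR96 was also above control where HR3 overlapped control. E74, an early gene, had 78.9, 46.2 and 97.4 CPM in the tetrazolidamide libraries, against 9.17, 7.88 and 17.9 CPM in the control libraries, and was higher by 2.67 on the log2 scale (SE 0.36, edgeR adjusted p = 0.000559). In the emamectin benzoate libraries E74 had 9.40, 8.90 and 7.65 CPM, within or just below the range of control. HR96 (LOC118270436), a receptor linked to xenobiotic and lipid responses in *Drosophila*, rose in tetrazolidamide by 1.78 (SE 0.15, edgeR adjusted p = 4.26e-05) and in cyantraniliprole by 0.87 (SE 0.15, edgeR adjusted p = 0.0165). It had 10.6 to 12.2 CPM in cyantraniliprole, 7.36 to 8.43 CPM in emamectin benzoate and 8.30 to 9.49 CPM in spinetoram, against 5.43 to 7.07 CPM in control. It did not pass with emamectin benzoate or spinetoram. The cyantraniliprole call was lost without control library 2 or any cyantraniliprole library, with an adjusted p of up to 0.0820.

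E78 (LOC118261897), another hormone-induced nuclear receptor, lay below every control library in every treated group, also where HR3 overlapped control. It had 3.72, 5.93 and 7.06 CPM in the cyantraniliprole libraries and 1.65, 2.62 and 4.71 CPM in the spinetoram libraries. It did not pass in either group (edgeR adjusted p = 0.305 and 0.0661). It had 1.88, 2.48 and 1.75 CPM in the emamectin benzoate libraries and 0.74, 1.85 and 0.55 CPM in the tetrazolidamide libraries, against 7.91, 7.25 and 17.5 CPM in the control libraries. In these 2 groups it passed as lower, with a log2 difference of -2.42 with emamectin benzoate (SE 0.53, edgeR adjusted p = 0.0315) and -3.38 with tetrazolidamide (SE 0.55, edgeR adjusted p = 0.00165). The tetrazolidamide call held in all 15 fits that left out 1 library; the emamectin benzoate call was lost without control library 3 or any emamectin benzoate library, with an adjusted p of up to 0.140. FTZ-F1 (LOC118267427), the target of HR3 in *Drosophila*, did not follow HR3. It had 34.6, 36.8 and 35.4 CPM in the emamectin benzoate libraries, 256, 340 and 186 CPM in the tetrazolidamide libraries, 84.3, 70.8 and 31.9 CPM in the cyantraniliprole libraries and 185, 62.9 and 348 CPM in the spinetoram libraries, against 152, 26.9 and 29.3 CPM in the control libraries. In control and spinetoram the libraries with the higher cuticle scores, control library 1 and spinetoram libraries 1 and 3, had the higher FTZ-F1 levels. Within tetrazolidamide the order was the reverse, with 340 CPM in library 2, which had the lowest score of the group, and 186 CPM in library 3, which had the highest. It did not pass relative to control, with a log2 difference of 1.91 in tetrazolidamide (SE 0.71, edgeR adjusted p = 0.0718). HR38, a receptor that can also pair with ultraspiracle, was low with emamectin benzoate, at 7.59 ± 2.38 CPM against 39.0 ± 23.3 CPM in control (SD, n = 3 each), but did not pass (edgeR adjusted p = 0.0839).

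**Figure D4:**
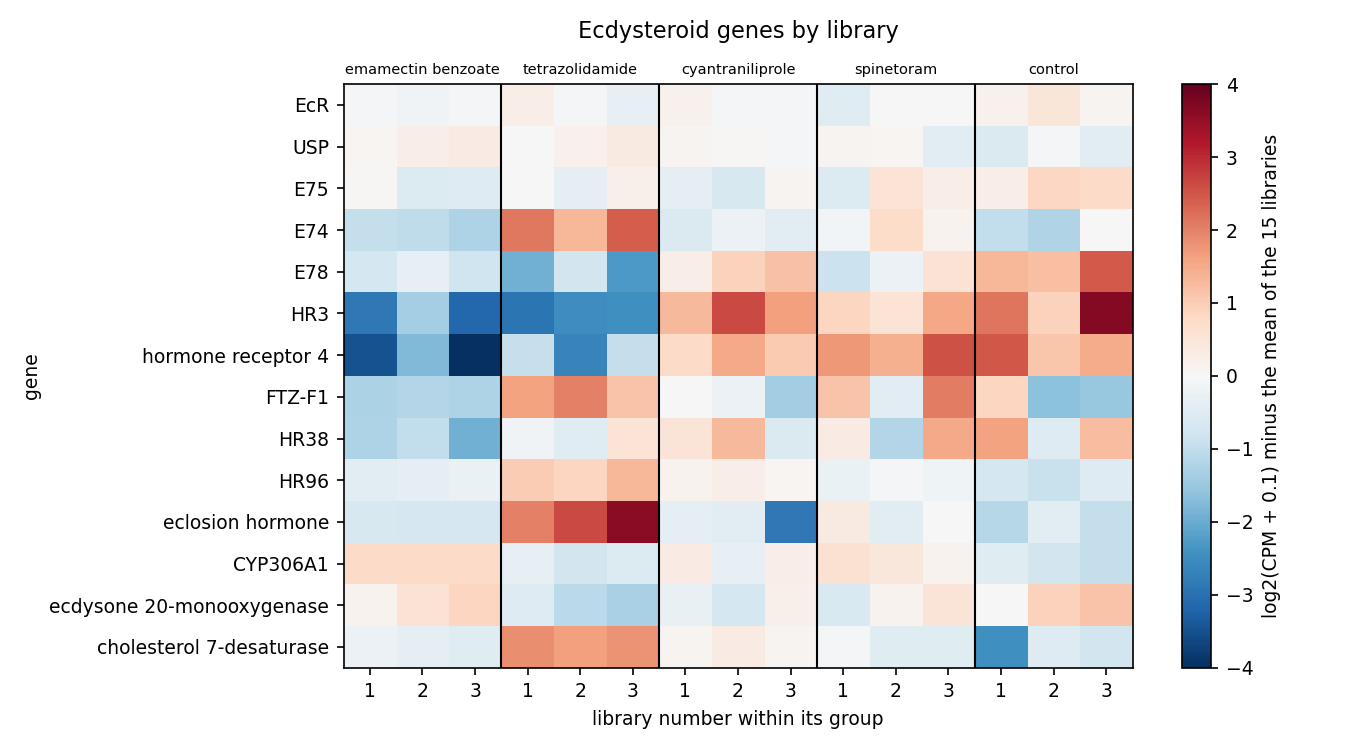
The plot holds 14 ecdysteroid genes (rows) in the 15 libraries (columns, grouped), as log2(CPM + 0.1) minus the gene's mean over the libraries; red is above and blue below that mean, and colours stop at 4. HR3 and hormone receptor 4 are blue in the emamectin benzoate and tetrazolidamide libraries, whereas E74, FTZ-F1, eclosion hormone and cholesterol 7-desaturase are red in tetrazolidamide alone of these 2 groups.

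In the synthesis branch, CYP306A1 stood far above the P450 genes of the last steps in the gland. Per length, CYP306A1 averaged 26.1, 10.1, 17.9 and 19.8 FPKM in emamectin benzoate, tetrazolidamide, cyantraniliprole and spinetoram, and 9.73 FPKM in control. CYP302A1 (LOC118281625), the next hydroxylase of the chain, averaged 0.18, 0.39, 0.14 and 0.05 FPKM in the same treated groups and 0.15 FPKM in control. CYP315A1 (LOC118269113), which follows it, averaged 0.16, 0.03, 0.09 and 0 FPKM in the treated groups and 0.13 FPKM in control, and neither passed in any comparison. CYP18A1 (LOC118266961), which breaks ecdysteroids down, averaged 14.5, 10.6, 14.8 and 10.5 FPKM in the treated groups and 12.4 FPKM in control, also without passing. A second CYP18A1 entry, LOC118267127, was at 0 in all libraries. The steps before CYP306A1 changed with tetrazolidamide: neverland (LOC118281031), the enzyme of the first step, was at 0 in all 3 tetrazolidamide libraries, against 2.48, 0.31 and 1.22 CPM in the control libraries, at least 21.2-fold lower than the control mean, taking 3 read pairs over the group as the floor (edgeR adjusted p = 0.00112). Without control library 1 the bound was 12.1-fold. Cholesterol 7-desaturase (LOC118281054), an entry named for the reaction that neverland carries out, was higher by 2.81 on the log2 scale (SE 0.38, edgeR adjusted p = 0.000632), with 24.7, 21.4 and 23.7 CPM in the tetrazolidamide libraries, against 1.17, 4.72 and 4.07 CPM in the control libraries. One CYP307A1 entry, LOC118281189, was at 0 in all tetrazolidamide libraries and averaged 0.99 CPM in control (edgeR adjusted p = 0.0241), a call lost without any 1 tetrazolidamide library; the other, LOC118281224, averaged 12.8 CPM in tetrazolidamide and 11.6 CPM in control and did not pass. Ecdysone 20-monooxygenase (LOC118278003), which makes the active hormone, fell with tetrazolidamide, with a log2 difference of -1.69 (SE 0.37, edgeR adjusted p = 0.00730).

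CYP306A1 levels are given beside those of midgut genes. The list of peritrophin and trypsin genes, taken as midgut markers, held 86 genes, of which 69 were tested. Its share of counted units was 1.65 to 2.38% in the emamectin benzoate libraries, 0.596 to 0.796% in tetrazolidamide, 0.615 to 1.67% in cyantraniliprole and 1.17 to 2.05% in spinetoram, against 0.520 to 0.625% in control. This share is a sum in which abundant genes weigh most, and the peritrophins of the list did not all follow it. The peritrophin-like gene LOC118274190 had 317 to 534 CPM in cyantraniliprole and 76.6 to 187 CPM in emamectin benzoate. A peritrophin-44-like gene, LOC118279986, had 10.4 to 29.3 CPM in tetrazolidamide and at most 0.451 CPM in any other group. Within cyantraniliprole the library with the lowest CYP306A1 level, library 2 at 26.2 CPM, also had the lowest share, 0.615%, against 1.25% and 1.67% in libraries 1 and 3. The other groups did not all follow this order. Within control the library with the highest CYP306A1 level, library 1 at 23.8 CPM, had the lowest share, 0.520%, and within emamectin benzoate CYP306A1 was alike in all 3 libraries although the share varied. Relative to control, 9 of the 69 midgut genes were higher and 1 lower with emamectin benzoate, beside 4.09% of all genes passing in either direction. With tetrazolidamide 12 were higher and 5 lower, close to the 22.3% of all genes. Both CYP306A1 and the midgut share overlapped control there. With cyantraniliprole 4 were higher and 0 lower, beside 2.62%, and with spinetoram 10 were higher and 0 lower, beside 4.01% (edgeR, adjusted p under 0.05). Of the 86 genes, 16 were at 0 in all emamectin benzoate libraries, 16 in tetrazolidamide, 15 in cyantraniliprole, 14 in spinetoram and 12 in control, and 5 were at 0 in all 15 libraries. The part of midgut RNA in the CYP306A1 differences was not tested.

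**Figure D5:**
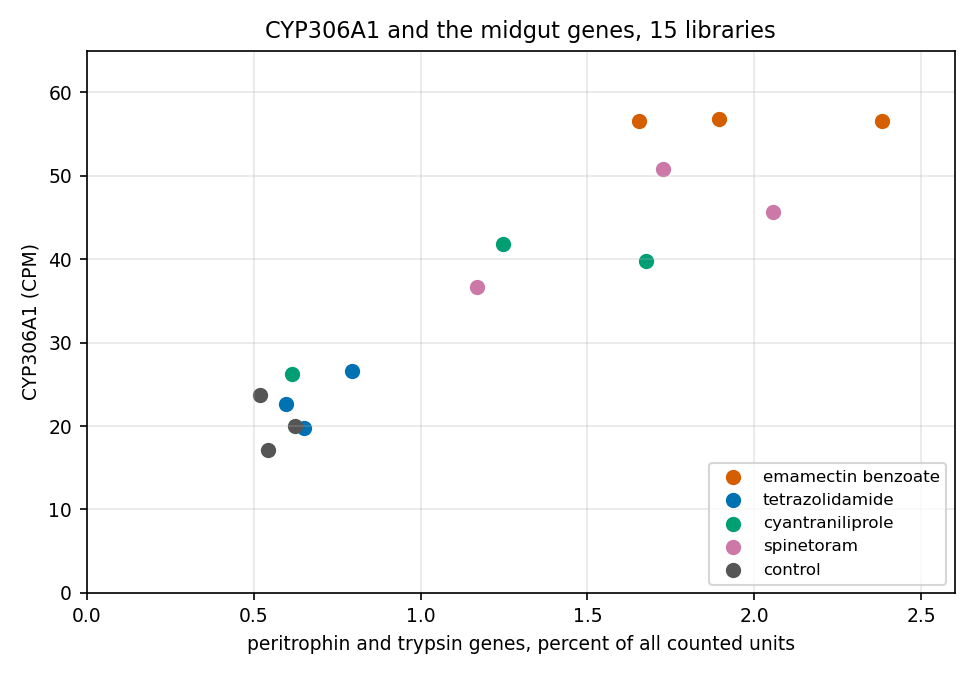
CYP306A1 level in CPM (vertical axis) against the percent of counted units in 86 peritrophin and trypsin genes (horizontal axis) in the 15 libraries, coloured by group. The control and tetrazolidamide libraries and cyantraniliprole library 2 lie at 0.520 to 0.796% and 17.1 to 26.6 CPM, and the other libraries lie at 1.17 to 2.38% and 36.7 to 56.8 CPM.

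The genes most like each of the 3 over the 15 libraries, by Pearson's r on log2(CPM + 1) among 11159 genes with an informative description, are given as a description; the points share libraries and groups. For HR3 they were LOC118279688 (flocculation protein FLO11, r = 0.99), LOC118273878 (mucin-3A, 0.98), 2 genes described as heat shock protein 22-like, LOC118277109 and LOC118276752 (0.98 each), and LOC118272073 (protein spaetzle 4, 0.98). The FLO11 gene averaged 0.815, 0.321, 21.8 and 12.2 CPM in emamectin benzoate, tetrazolidamide, cyantraniliprole and spinetoram, and 43.5 CPM in control. For hormone receptor 4 they were 2 acyl-CoA Delta(11) desaturase-like genes, LOC118269154 (0.93) and LOC118269215 (0.91), an elongase of very long chain fatty acids, LOC118282375 (0.93), a carboxypeptidase B-like gene, LOC118266420 (0.92), and a split ends-like gene, LOC118266456 (0.91). The first desaturase averaged 0.434, 0.891, 62.7 and 87.6 CPM in the same treated groups and 102 CPM in control. For CYP306A1 they were an apyrase-like gene, LOC118278222 (0.94), 3 alkaline C-like trypsins, LOC118265201, LOC118265203 and LOC118265204 (0.92 to 0.93), and an aminoacylase-1-like gene, LOC118265252 (0.92). The apyrase-like gene averaged 102, 47.5, 65.9 and 86.1 CPM in the treated groups and 30.6 CPM in control. The second HR3 entry came at rank 86 for HR3 (r = 0.88) and the second hormone receptor 4 entry at rank 380 for hormone receptor 4 (r = 0.66), so the other entry of the same receptor was not among the closest genes. The second HR3 entry came closer to hormone receptor 4, at rank 10 (r = 0.90).

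The rest of the pathway was followed in 6 lists of ecdysteroid synthesis, ecdysone response, juvenile hormone, ecdysis peptide, chitin and tanning genes, 102 genes tested besides the 3 picked. The 102 include the second entries of both receptors, so counts over the 100 other genes are given where they differ. With tetrazolidamide 15 were higher and 15 lower than control (15 and 14 without the second entries), beside 22.3% of all genes tested, and 23 of these 30 calls held in every fit that left out 1 library. By list, with higher before lower, the calls were 1 and 3 of 10 in ecdysteroid synthesis and breakdown, 4 and 3 of 18 in ecdysone response, 0 and 5 of 21 in juvenile hormone, 1 and 0 of 7 in ecdysis peptides, 2 and 2 of 22 in chitin and moulting fluid, and 7 and 2 of 24 in tanning. Eclosion hormone (LOC118269902), which starts the shedding behaviour, had 2.80, 4.41 and 8.78 CPM in the tetrazolidamide libraries, against 0.23, 0.44 and 0.27 CPM in the control libraries, and was higher by 4.09 (SE 0.95, edgeR adjusted p = 0.00966). In the ecdysone response list, besides HR96, E74 and E78, the ecdysteroid-regulated 16 kDa protein gene LOC118267732 was higher by 2.34 (SE 0.50, edgeR adjusted p = 0.00663). Of the tanning genes, a yellow-f2-like gene, LOC118280999, had the smallest p and was at 0 in all tetrazolidamide libraries, at least 13.5-fold lower than the control mean of 0.852 CPM (edgeR adjusted p = 0.000109). The next 3 were higher. The yellow-like gene LOC118264620 averaged 46.2 CPM in tetrazolidamide and 4.04 CPM in control, the yellow-like gene LOC118264306 averaged 119 CPM in tetrazolidamide and 31.9 CPM in control, and the yellow-f2-like gene LOC118281154 averaged 58.3 CPM in tetrazolidamide and 13.9 CPM in control (edgeR adjusted p = 0.000136, 0.000795 and 0.00134). In the chitin list, chitinase domain-containing protein 1 (LOC118271970) fell, with 5.07 CPM on average in tetrazolidamide and 13.4 CPM in control, as did a beta-N-acetylglucosaminidase, LOC118272518, with 12.0 and 29.1 CPM in tetrazolidamide and control. The chitin synthases LOC118273395 and LOC118273105 rose, with 195 and 172 CPM on average in tetrazolidamide, against 49.9 and 59.9 CPM in control (edgeR adjusted p of the 4 genes 0.00141, 0.0116, 0.00226 and 0.00970). Apart from Krueppel homolog 1, all tested genes of the juvenile hormone list are annotated as enzymes that break the hormone down. The 5 called genes were such enzymes too, which the make-up of the list nearly fixed. The 4 with the smallest p were the epoxide hydrolases LOC118279351, with a log2 difference of -1.61, and LOC118279322, with -1.19, and the esterases LOC118275676, with -3.84, and LOC118280278, with -0.99 (edgeR adjusted p = 0.00206, 0.00660, 0.00950 and 0.0361). The call of LOC118280278 was lost without control library 3 or any tetrazolidamide library, at up to 0.114. Krueppel homolog 1, the response gene of juvenile hormone, did not pass relative to control in any treated group. One entry for the E93 homologue, LOC118270242, was at 0 in all tetrazolidamide libraries and averaged 0.16 CPM in control; its call (edgeR adjusted p = 0.0206) was lost without tetrazolidamide library 1 or 3, and the other entry, LOC118270839, averaged 0.10 CPM in tetrazolidamide and 0.13 CPM in control and did not pass.

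With emamectin benzoate 1 gene was higher and 2 were lower, beside 4.09% of all genes; 1 of the lower ones was the second HR3 entry, which rests on the pick, and the other was E78. The higher one, chitin synthase LOC118273105, differed by 1.97 (SE 0.36, edgeR adjusted p = 0.0177, lost without control library 1 or emamectin benzoate library 3, at up to 0.0825). With cyantraniliprole 3 genes were higher and 0 lower, beside 2.62% of all genes: HR96, chitin synthase LOC118273105 and a juvenile hormone epoxide hydrolase, LOC118276057. With spinetoram 6 were higher and 1 lower, beside 4.01%: the higher were both chitin synthases, the yellow-like gene LOC118264620, aromatic-L-amino-acid decarboxylase and 2 juvenile hormone esterases, LOC118263481 and LOC118266127, and the lower was the esterase LOC118280278. None of these calls with emamectin benzoate, cyantraniliprole or spinetoram held in every fit that left out 1 library. With DESeq2 the counts were 19, 14 and 17, but its calls over all genes rose too. Those numbered 1783, 1532 and 1872, against 634, 406 and 622 with edgeR. In tetrazolidamide 10 genes were higher and 12 lower than in cyantraniliprole (10 and 11 without the second entries), beside 11.1% of all genes, and 12 were higher and 10 lower than in spinetoram, beside 10.7%; 9 and 13 of these calls held in every such fit. Neverland was at least 40.6-fold lower than in cyantraniliprole and at least 68.7-fold lower than in spinetoram (edgeR adjusted p = 0.00166 and 0.00108), and LOC118280999 at least 24.0-fold and 28.9-fold lower (edgeR adjusted p = 0.000138 and 0.000125). E74 was higher in tetrazolidamide by 2.43 (SE 0.35, edgeR adjusted p = 0.00215) relative to cyantraniliprole and 1.72 (SE 0.34, edgeR adjusted p = 0.00932) relative to spinetoram. FTZ-F1 passed in neither, with log2 differences of 2.07 (SE 0.71, edgeR adjusted p = 0.0825) and 0.39 (SE 0.68, edgeR adjusted p = 0.771). Between spinetoram and cyantraniliprole 1 gene was higher and 0 lower, beside 0.181% of all genes; it was the juvenile hormone esterase LOC118262636, at 0 in all cyantraniliprole libraries, and its call was lost in 12 of the 15 fits that left out 1 library.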

How the data were processed

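RNA-seq was made from whole bodies, 3 libraries per group, with poly(A) selection and strand marking by dUTP, per the labels' protocols. Per the submitters' processing notes, DESeq2 and edgeR were used with StringTie 1.3.4d, HISAT2 2.0.4 and cutadapt 1.9; their roles, the build and the strand setting are not given in the sources used here. The deposited table gives estimated counts per gene, in which the values themselves show steps of about 3.8 units per read pair, and FPKM per gene, also computed by the authors. Estimated counts were rounded to whole numbers, filtered with filterByExpr (minimum count 10) and tested with edgeR 4.0.16 (TMM, quasi-likelihood, all 5 groups in 1 fit), at an adjusted p of 0.05; DESeq2 1.42.0 and limma 3.58.1 were alternatives, in R 4.3.3. CPM are these counts scaled by the TMM library size. FPKM served to set levels of different genes side by side and, on a log2 scale, in the limma alternatives. The scripts were tested on simulated data. Tests of the 3 genes between treated groups were planned, but their libraries served in the pick. The Results therefore give those differences without p-values, and the last section gives edgeR's adjusted p-values only to describe the fits. The 3 genes and all lists were chosen with earlier results of these data known. Genes named besides the 3 were EcR, USP, E75, FTZ-F1, broad, E93, the other receptors, Kr-h1 and the ecdysteroid P450 genes, up to 4 called genes per list by smallest p relative to control, a few of these again between treated groups, and the 5 genes most like each of the 3. No sequences are printed, as no sequence table was used here.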

Additional observations from a re-analysis of the deposited data

How the results depend on the processing

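Between treated groups, edgeR's adjusted p-values for the 3 genes rest on libraries that served in picking them, so they describe the fits and support nothing. In tetrazolidamide relative to cyantraniliprole they were 0.00366, 0.0375 and 0.0576 for HR3, hormone receptor 4 and CYP306A1, relative to spinetoram 0.00837, 0.0125 and 0.0123, and in spinetoram relative to cyantraniliprole 0.632, 0.673 and 0.607. Some changed side of 0.05: hormone receptor 4 in tetrazolidamide relative to cyantraniliprole missed it with the replicate block (0.0703) and with the 2 entries summed (0.0642, chosen after seeing the data), while CYP306A1 passed it with DESeq2 (0.0248), with an FPKM of at least 5 in 3 libraries (0.0362), with limma on log2(FPKM + 1) (0.0187) or log2(FPKM + 0.1) (0.0170), and with counts in units of 1 read pair (0.0466); the cause was not tested. Leaving out 1 library in turn, the adjusted p for HR3, hormone receptor 4 and CYP306A1 ranged 0.00159 to 0.0200, 0.0163 to 0.104 and 0.0293 to 0.173 in tetrazolidamide relative to cyantraniliprole, 0.00370 to 0.0407, 0.00518 to 0.0427 and 0.00860 to 0.0489 relative to spinetoram, and 0.517 to 0.941, 0.604 to 0.880 and 0.515 to 0.943 in spinetoram relative to cyantraniliprole. List genes called relative to control numbered 3 with emamectin benzoate, but 19 with DESeq2, 8 with the FPKM filter, 5 and 6 with limma at a pseudocount of 1 and 0.1, 7 in read-pair units and 0 when only the 2 groups were fitted; 30 with tetrazolidamide, but 19 with the FPKM filter, which tests fewer genes; 3 with cyantraniliprole, but 14 with DESeq2, 6 and 5 with limma and 0 in the 2-group fit; and 7 with spinetoram, but 17 with DESeq2, 4 without a filter, 4 with the replicate block and 0 in the 2-group fit. Over all genes, DESeq2 called 1783, 1532 and 1872 with emamectin benzoate, cyantraniliprole and spinetoram, against 634, 406 and 622 in the main fit. Its list counts thus rose along with calls over all genes. In the 2-group fits, which edgeR ran on fewer samples, some list genes had an unadjusted p under 0.05. These were 29 of 100, 18 of 97 and 22 of 96 tested with emamectin benzoate, cyantraniliprole and spinetoram. The share over all genes was not counted. Without 1 library the list genes called numbered 0 to 6, 23 to 32, 0 to 12 and 0 to 7 with emamectin benzoate, tetrazolidamide, cyantraniliprole and spinetoram. HR3 with the cuticle score turned negative with log2(FPKM + 1) (-0.054), with the cuticle share (-0.076), with cuticle genes other than larval and endocuticle (-0.012) and with entries summed (-0.042), CYP306A1 with the score turned with the cuticle share (-0.15), and hormone receptor 4 with CYP306A1 turned with log2(FPKM + 1) (-0.12), the replicate block (-0.033) and without the tetrazolidamide group (-0.15). Without 1 library r was -0.25 to 0.47, 0.45 to 0.59 and 0.25 to 0.57 for HR3, hormone receptor 4 and CYP306A1 with the score, 0.28 to 0.75 for the receptors with each other, -0.70 to -0.45 for HR3 with CYP306A1 and -0.15 to 0.24 for hormone receptor 4 with CYP306A1. Hormone receptor 4 was not tested under the FPKM filter. Same-numbered libraries of different groups were checked for shared deviations: over 30 pairs r was -0.154 to 0.373 (median 0.0105) and 4 pairs were over 0.1. The highest were between library 1 of control and of emamectin benzoate (0.373), of control and cyantraniliprole (0.26), and of emamectin benzoate and cyantraniliprole (0.18). The numbers were not taken to pair the libraries, so the permutation within groups does not allow for such a shared deviation. The replicate block changed no other call of the 3 genes. The 3 libraries per group and 7 to 95 read pairs of a receptor in the emamectin benzoate libraries limit what these data can show.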
